A study of Mus with 4 samples.

Results

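Circular RNAs (circRNAs) are closed RNA rings that form when a splice donor joins an acceptor that lies upstream of it, and reads across this back-spliced junction mark them. The 5 genes Gigyf2, Phf21a, Tulp4, Mettl9 and Snrk each gave rise to 1 of the 9 most-read circRNAs in mouse ocular tissue. All circRNAs listed for these hosts were taken, 67 of the 44073 circRNAs listed in the 4 libraries together, and all 67 list a single host and lie on the plus strand. They were chosen by their junction reads summed over the libraries, so the levels of the leading circRNAs below are a description. The circRNA with the most summed reads of a host is called its major circRNA, and the other 62 are called minor.

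The libraries came from C57BL/6J mice lacking VLDLR (the receptor for very-low-density lipoprotein) at postnatal day 12 (P12) and day 13 (P13), and from wild-type C57BL/6J mice at P12 and P13. All pups had breathed 75% oxygen between P7 and P12, and the P13 tissue was taken after they had been returned to air. High oxygen followed by air is a widely used model of retinal vessel loss and regrowth, and loss of the receptor in mice is known for abnormal retinal vessels. Each of the 4 groups held 1 library of rRNA-depleted and linear-RNA-depleted total RNA. The labels give neither the allele of the deletion nor the number of animals in a library, so that p-values measure the spread between these libraries, which may be technical. For the days, age and the return to air cannot be told apart. Every junction read of the deletion libraries came from 1 sequencing run and every one of the wild-type libraries from another, with 0 runs shared, so that genotype and run cannot be told apart.

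The 5 hosts encode proteins with unrelated roles. GIGYF2 is a translational repressor that works with the cap-binding protein EIF4E2, and PHF21A reads an unmodified histone tail as part of the LSD1-CoREST histone demethylase complex. TULP4 is a member of the tubby-like protein family, METTL9 is a methyltransferase that modifies histidine in proteins, and SNRK is a kinase related to AMP-activated protein kinase. A back-splice within such a gene uses the same primary transcript as the messenger RNA. Without free ends a circle resists exonucleases, and circles of a few exons are known to accumulate in neural tissue. No sequence is shown for these circles, which were described by position and reads alone.

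Junction reads per library numbered 299723 and 341873 in the deletion at P12 and P13, and 662811 and 759063 in wild type at P12 and P13. The tables list circRNAs with at least 2 junction reads, so a circRNA given as 0 is one that is not listed and may hold 1 read. No circRNA of Vldlr was listed in any library (0 reads), and this left the genotype labels unchecked. Photoreceptor genes were hosts (7 of 9 on the list), with 859 and 821 reads per 100000 junction reads in the deletion and 591 and 695 in wild type. Lens genes were hosts too (5 of 7, with Lim2 and Mip at 0), with 227 and 173 in the deletion and 61.4 and 73.3 in wild type. Both sums were higher in both deletion libraries, and their part in the results below was not tested. Within the lists the genes differed: the lens gene Bfsp1 had 658 and 564 reads in the deletion and 320 and 344 in wild type, whereas Cryga had 4 and 8 in the deletion and 45 and 158 in wild type. In such bulk tissue, fewer cells of a type and less RNA per cell cannot be told apart. Retinal pigment epithelium, endothelial and striated muscle genes were hosts as well (4 of 4, 4 of 5 and 4 of 4), with between 3.80 and 7.01, 6.03 and 10.1, and 205 and 258 reads per 100000. The striated muscle sum was mostly that of 1 gene, Dmd, with 632 and 832 reads in the deletion and 1300 and 1501 in wild type. Ttn, Ryr1 and Neb held 37, 194 and 3 reads summed over the libraries.

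The 67 circRNAs held 59365 junction reads, 2.88% of all reads in the 4 libraries. Their share per library was 2.91% and 2.98% in the deletion at P12 and P13, and 2.88% and 2.81% in wild type at P12 and P13. The 5 major circRNAs took 90.8% of these reads. The minor circRNAs shared the remaining 5481 reads, and 23 of the 67 were listed in 1 library only.

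The Gigyf2 major circRNA (chromosome 1, 87364104 to 87380008, exon class) had rank 2 by summed reads among all circRNAs and spans 15905 bases. Spans here are distances on the chromosome from start to end, and the lengths of the circles themselves are not known from these data. It held 2142 and 2619 reads in the deletion at P12 and P13, and 4686 and 5253 in wild type at P12 and P13. Per 100000 junction reads of the library these are 715 and 766 in the deletion and 707 and 692 in wild type. Both deletion libraries lay above both wild-type libraries, but the exact binomial 95% intervals at P12 overlapped (685 to 746 in the deletion and 687 to 728 in wild type).

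Phf21a came next, with a major circRNA that spans 16676 bases (chromosome 2, 92214049 to 92230724, exon class) at rank 5. Its reads were 1867 and 2225 in the deletion, and 3361 and 4099 in wild type. Scaled to 100000 junction reads they were 623 and 651 in the deletion and 507 and 540 in wild type, so that the genotypes did not overlap. How often the genotypes separate in this way over all circRNAs was not counted, here or below.

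The Tulp4 major circRNA (chromosome 17, 6137211 to 6139156) had rank 7, has the shortest span of the 5 at 1946 bases, and is listed in the intron class. Among the 50 most-read circRNAs it was the single one of that class, against 43 exonic and 6 intergenic ones. Its reads were 1438 and 1638 in the deletion and 3365 and 3225 in wild type. Per 100000 they were 480 and 479 in the deletion and 508 and 425 in wild type, so that the deletion libraries fell between the wild-type libraries. The class in these tables depends on the authors' annotation (not given in the sources used here).

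Mettl9 had a major circRNA that spans 9562 bases (chromosome 7, 121047838 to 121057399, exon class) at rank 8. Its reads were 1122 and 1305 in the deletion, and 3232 and 3694 in wild type. At 374 and 382 per 100000 both deletion libraries lay below the wild-type libraries, at 488 and 487.

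Last came the Snrk major circRNA with a span of 5709 bases (chromosome 9, 122131893 to 122137601, exon class). It had 1427 and 1573 reads in the deletion, and 2601 and 3012 in wild type. These are 476 and 460 per 100000 in the deletion and 392 and 397 in wild type, with no overlap of the genotypes. Its 8613 summed reads put it at rank 9, just inside the choice, and the Rbm4 circRNA with 8370 and the Stx6 circRNA with 8251 lay just outside. The other circRNAs among the first 9 were an intergenic one on chromosome 10 and those of Ano2, Bbs9 and Hipk3.

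**Figure D1:**
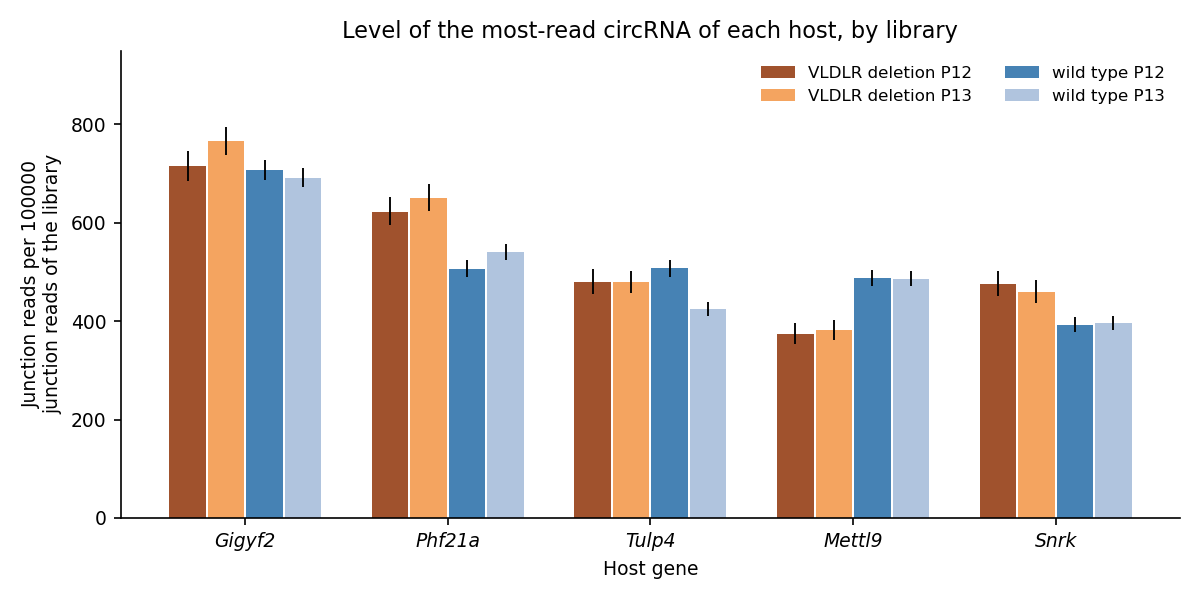
Junction reads of the major circRNA of each host per 100000 junction reads of the library (bars), with exact binomial 95% intervals that cover counting error only. In Gigyf2, Phf21a and Snrk both deletion bars stand above both wild-type bars, and in Mettl9 both stand below them. The Gigyf2 intervals overlap at P12.

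Most reads of each host came from its major circRNA. Over the 4 libraries the major circRNA held 96.5% of the junction reads of Gigyf2, 96.4% of those of Phf21a, 93.1% for Tulp4, 83.7% for Mettl9 and 81.4% for Snrk. Among the 421 hosts with at least 1000 summed reads and more than 1 circRNA, the median share of the leading circRNA was 51.7%, with quartiles of 35.6% and 70.6%. Ranked by this share the 5 hosts stood at places 15, 16, 28, 66 and 72 in the order given. The rule used the reads of these circRNAs, so this position is a description. Of the other hosts of top circRNAs, Hipk3 had 97.9% of its reads in 1 circRNA, whereas Ano2 had 54.0% and Bbs9 39.7%.

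The number of circRNAs per host ranged more widely, with 21 for Gigyf2, 20 for Tulp4, 12 for Snrk, 10 for Phf21a and 4 for Mettl9, against a median of 19 for the 421 hosts. By library, 36 and 39 of the 67 were listed in the deletion at P12 and P13, and 55 and 50 in wild type at P12 and P13. At the depth of the smallest library, 299723 reads, the expected numbers were 36 and 37.9 in the deletion and 41.3 and 39.4 in wild type. In the deletion alone 4 were listed, and in wild type alone 23, which held 106 reads together. Over the 44073 circRNAs the deletion alone listed 10.7% and wild type alone 42.3%. The most-read circRNAs listed in 1 genotype alone were a Gigyf2 one (87403667 to 87411867) with 8 and 10 reads in wild type, and a Phf21a one (92214049 to 92330808) with 9 and 0 in wild type. None of the circRNAs listed in 1 genotype alone reached the test of the genotypes.

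Minor circRNAs reused the positions of the major one. Of the 62, 21 shared its start and 12 its end, and these held 4705 of the 5481 minor reads. The other 29 shared neither and held 776. In position, 11 minor circRNAs lay inside the interval of the major one with 61.4% of the minor reads, and 22 contained it with 24.4%. A further 7 overlapped it in part with 5.2%, and 22 lay outside it with 8.9%. Of the 3367 inside reads, 1787 came from 1 Mettl9 circRNA and 998 from 1 Snrk circRNA. The hosts differed: inside circRNAs held all 1816 minor reads of Mettl9 and 1043 of 1973 in Snrk. They held 324 of 540 in Gigyf2, 181 of 430 in Phf21a and 3 of 722 in Tulp4. In Tulp4 467 minor reads came from circRNAs that contained the major one.

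**Figure D2:**
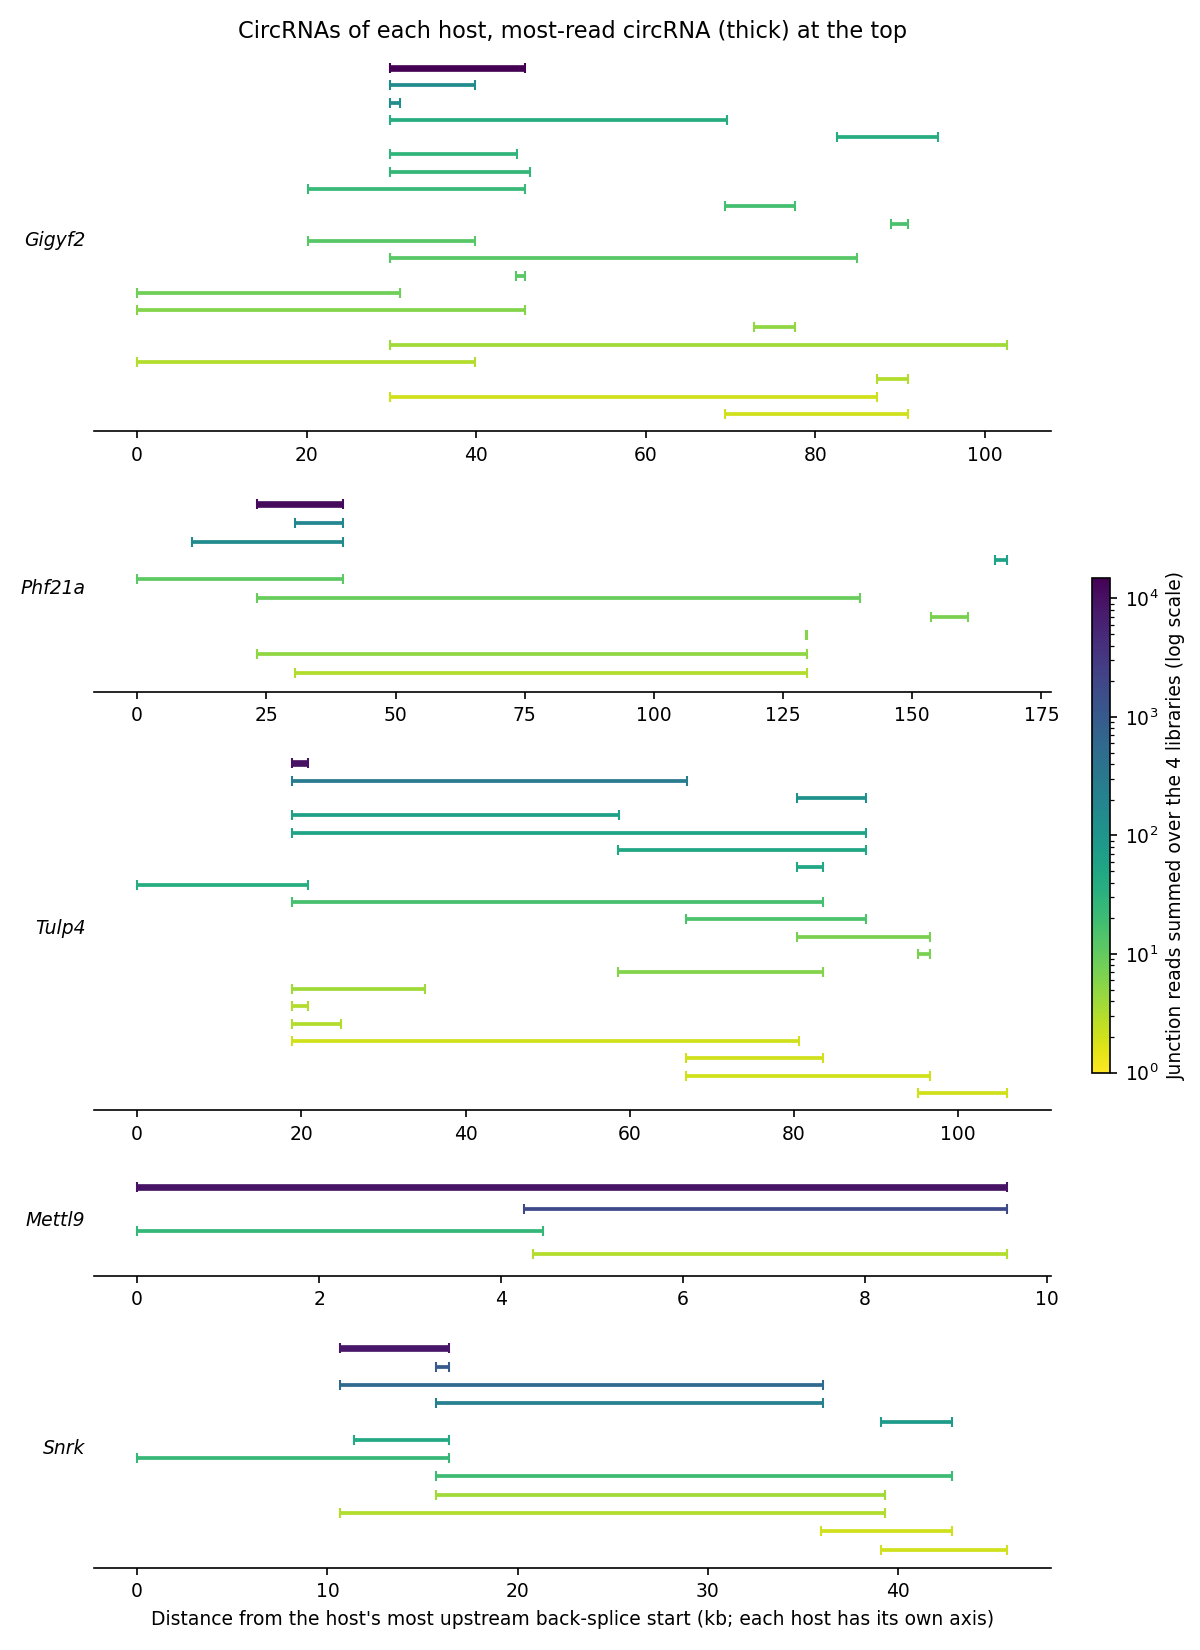
CircRNAs of each host drawn as spans from their start to their end, in kilobases from the most upstream back-splice start of the host, coloured by summed junction reads on a log scale. The major circRNA is the thick line at the top of each panel, and 33 of the 62 minor ones share its start or its end.

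In Gigyf2 the shared position was mainly the start. Of the 540 minor reads of this host, 394 shared the start of the major circRNA and 41 its end. With the major circRNA counted, position 87364104 was the start of 9 of the 21 Gigyf2 circRNAs and of 99.0% of the Gigyf2 reads. The most-read minor circRNA ran from there to 87374111 over 10008 bases, with 44 and 46 reads in the deletion and 41 and 20 in wild type. The next one had a short span of only 1176 bases, ended at 87365279, and had 32 and 30 reads in the deletion and 34 and 37 in wild type. Scaled to 100000 junction reads, the short one had 10.7 and 8.78 in the deletion and 5.13 and 4.87 in wild type, without overlap. One more, to 87403846, extended 39743 bases and had 4 reads in each deletion library and 12 and 18 in wild type.

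Phf21a showed the opposite arrangement, with 341 of its 430 minor reads sharing the end of the major circRNA and 14 its start. With the major circRNA counted, position 92230724 was the end of 99.3% of the Phf21a reads. A minor circRNA inside the major one (92221472 to 92230724) held 19 and 27 reads in the deletion and 72 and 63 in wild type. A longer one of the intron class (92201512 to 92230724) held 25 and 33 in the deletion and 46 and 45 in wild type. Away from these, a circRNA with a short span of 2346 bases lay far downstream (92356864 to 92359209). It had 17 and 19 reads in the deletion and 16 and 7 in wild type.

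In Tulp4 432 of the 722 minor reads shared the start of the major circRNA and 38 its end. With the major circRNA counted, 97.2% of the reads started at 6137211. It is the start of 9 of the 20 Tulp4 circRNAs, and all 9 are listed in the intron class. From this start the reads ran to several downstream ends: 59 and 39 reads in the deletion and 93 and 95 in wild type ended at 6185298. A further 9 and 14 in the deletion and 21 and 19 in wild type ended at 6176957. The exonic circRNA from 6198672 to 6207057, which does not touch the major one, had 13 and 6 reads in the deletion and 52 and 44 in wild type. Per 100000 these were 4.34 and 1.76 in the deletion and 7.85 and 5.80 in wild type, without overlap.

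Mettl9 formed the simplest set, with 4 circRNAs that all lie within the interval of the major one. Of its 1816 minor reads, 1790 shared the end of the major circRNA and 26 its start. With the major circRNA counted, position 121057399 ended 99.8% of the Mettl9 reads. The second circRNA started at 121052087 and spans 5313 bases, and with 1787 summed reads it was the most-read minor circRNA of the 5 hosts. It had 187 and 180 reads in the deletion and 648 and 772 in wild type, that is 62.4 and 52.7 per 100000 in the deletion and 97.8 and 102 in wild type. Both deletion libraries were below both wild-type libraries. The next one (121047838 to 121052296) had 0 and 4 reads in the deletion and 7 and 15 in wild type.

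Snrk combined a pair of starts with a pair of ends, and all 4 combinations were listed in every library. Besides the major circRNA, the upstream start 122131893 was joined from the far end 122157297 by 66 and 100 reads in the deletion and 186 and 207 in wild type. The downstream start 122136906 was joined from the near end 122137601 (a span of 696 bases) by 145 and 137 reads in the deletion and 322 and 394 in wild type. From the far end it was joined by 25 and 37 reads in the deletion and 88 and 87 in wild type. Thus the far end took a larger share of the reads at the downstream start than at the upstream start in each library. At the downstream start that share was 14.7% and 21.3% in the deletion and 21.5% and 18.1% in wild type. At the upstream start it was 4.42% and 5.98% in the deletion and 6.67% and 6.43% in wild type, and in no library did the exact binomial intervals of the 2 starts overlap. Another circRNA of the host, of the intron class (122132628 to 122137601), had 8 and 7 reads in the deletion and 2 and 28 in wild type.

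**Figure D3:**
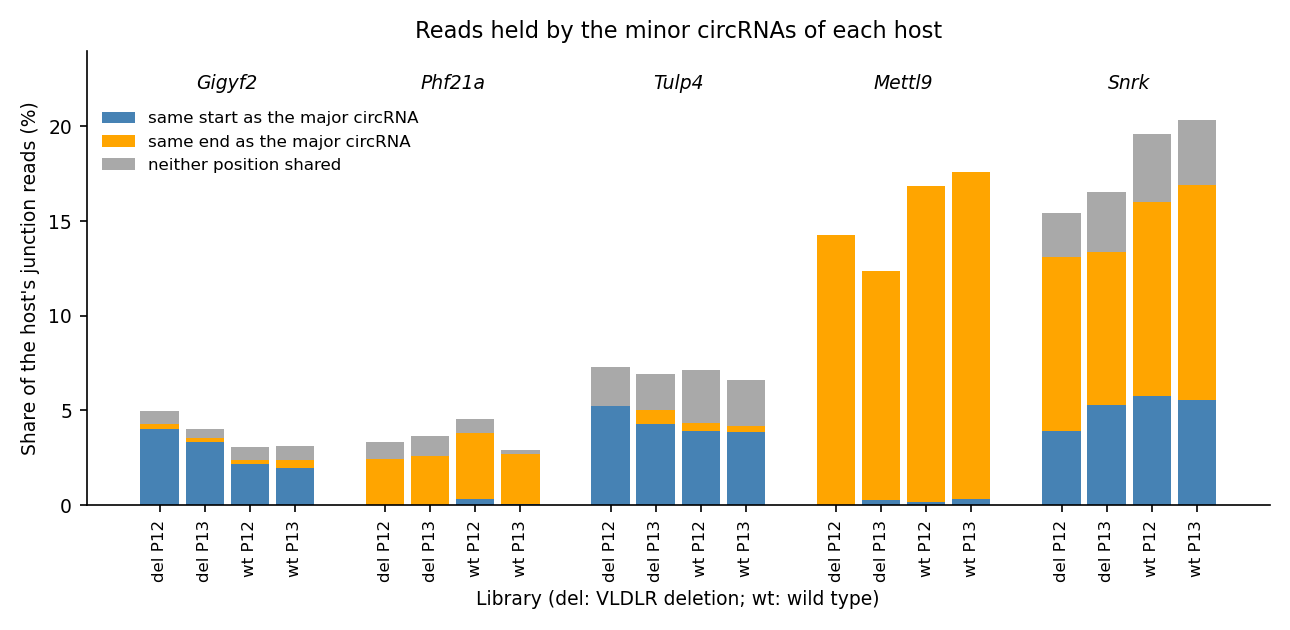
Share of the junction reads of each host that its minor circRNAs held in each library, split by whether they share the start or the end of the major circRNA. Shared starts predominate in Gigyf2 and Tulp4, shared ends in Phf21a, Mettl9 and Snrk.

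The deposited junction ratio sets back-spliced reads against reads that cross the same positions without the back-splice. It is a fraction in which the authors weighted each junction read by 2 before dividing by that number plus the non-junction reads. The RNA had been depleted of linear RNA, so the ratio does not give the balance of circular and linear RNA in the tissue. For the major circRNAs the ratio lay between 0.893 and 0.984 over the libraries. It was 0.982 and 0.984 in the deletion and 0.983 and 0.982 in wild type for Gigyf2, and 0.979 and 0.979 in the deletion and 0.975 and 0.979 in wild type for Mettl9. For Tulp4 the values were 0.952 and 0.959 in the deletion and 0.965 and 0.961 in wild type, and for Phf21a 0.956 and 0.961 in the deletion and 0.957 and 0.955 in wild type. Over the 2193 circRNAs that had 20 or more reads in every library the median was 0.629 and 0.627 in the deletion and 0.624 and 0.634 in wild type. Over the 50 most-read circRNAs the medians were 0.908 and 0.916 in the deletion and 0.908 and 0.912 in wild type. Among those 50 Gigyf2 and Mettl9 held places 2 and 4, Tulp4 and Phf21a places 11 and 12, and Snrk place 25.

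Snrk had the lowest junction ratio of the major circRNAs and the widest range between libraries. Its ratio was 0.928 (exact binomial 95% interval 0.918 to 0.938) and 0.921 (0.911 to 0.930) in the deletion, and 0.906 (0.897 to 0.913) and 0.893 (0.885 to 0.901) in wild type. The ratios of the genotypes did not overlap, but the intervals in deletion P13 and wild type P12 did. With 1 library a group the difference was not tested.

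Minor circRNAs had lower ratios, with medians of 0.103 and 0.099 in the deletion and 0.082 and 0.078 in wild type over those listed. By the definition of the ratio, reads of the major circle that cross a position inside it count as non-junction reads there. How far this lowered the ratios was not tested. The Gigyf2 circRNA ending at 87374111, which lies inside the major one, had ratios of 0.061 and 0.057 in the deletion and 0.029 and 0.012 in wild type. Its non-junction reads numbered between 1346 and 3273. For the second Mettl9 circRNA the ratio was 0.289 and 0.253 in the deletion and 0.278 and 0.290 in wild type. The Phf21a circRNA downstream at 92356864, which lies outside the major one, was the highest minor one in all libraries but wild type P13, with 0.829 and 0.844 in the deletion and 0.711 and 0.519 in wild type. In wild type P13 the Snrk circRNA from 122131893 to 122157297 stood above it with 0.559. Low ratios also occurred outside the major circRNA. The Snrk circRNA from 122160323 to 122164051 had 0.087 and 0.087 in the deletion and 0.088 and 0.106 in wild type.

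**Figure D4:**
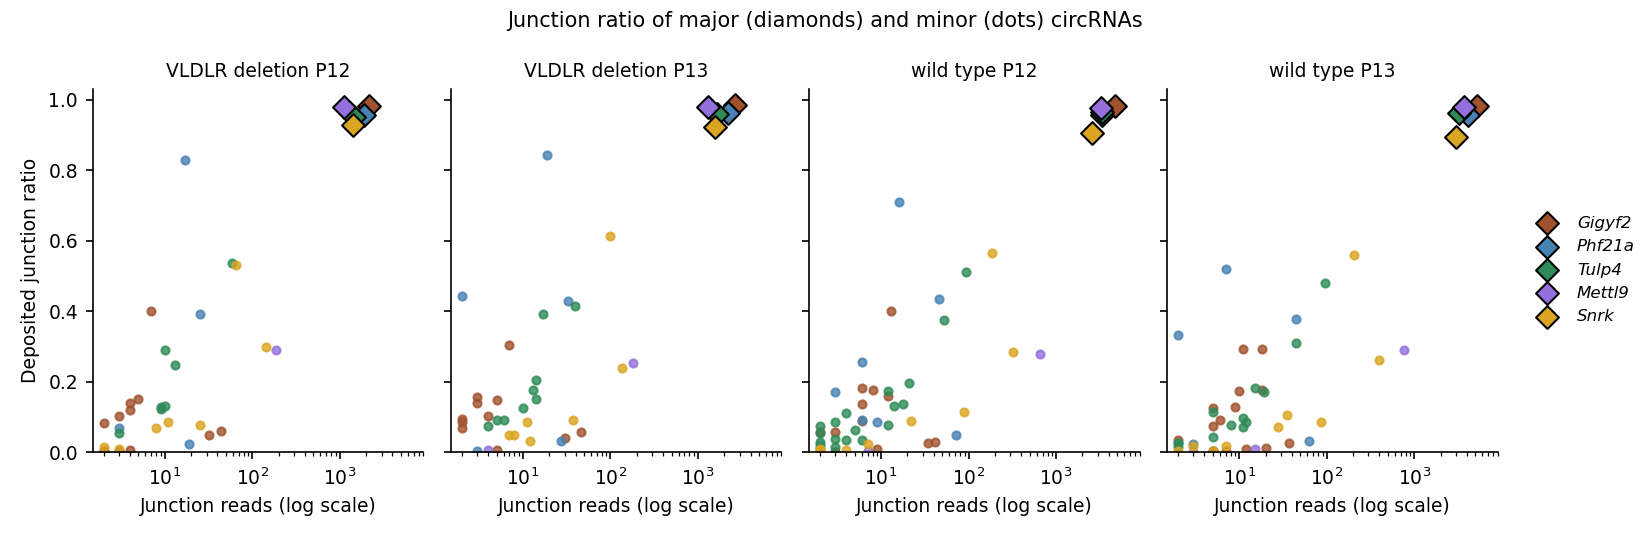
Deposited junction ratio against junction reads (log scale) for each listed circRNA of the 5 hosts, by library. The major circRNAs (diamonds) lie between 0.893 and 0.984 and the minor ones (dots) at 0.844 or lower.

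The genotypes were compared over both days in oxygen-treated eyes, a contrast in which genotype and sequencing run coincide. Both leading circRNAs of the histidine methyltransferase gene Mettl9 fell in the deletion, and a minor circRNA each of the translational repressor gene Gigyf2 and of Phf21a rose. The major circRNAs of Gigyf2, Phf21a, Tulp4 and Snrk did not pass. By edgeR's quasi-likelihood test and Benjamini-Hochberg adjustment, 442 of 8785 circRNAs rose and 315 fell, 8.62% called in all (5.03% rose and 3.59% fell). This balance depended on the settings, with 25 up and 4781 down when library sizes were taken from SRPBM, the authors' value scaled by 1 constant per library, and 260 up and 470 down without the count filter. Of the 67 circRNAs of the 5 hosts, 24 had the 10 reads in at least 2 libraries that the test required, and 4 of these were called, 2 up and 2 down. Their median log2 fold change was 0.14, against -0.08 for all circRNAs tested. Changes are relative to edgeR's TMM scaling of the libraries, and the scaling decides the sign of several. With SRPBM library sizes the median circRNA stood at a log2 fold change of -1.54.

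The second Mettl9 circRNA (121052087 to 121057399) fell by 0.80 on the log2 scale (SE 0.15, adjusted p = 0.00189 in edgeR's quasi-likelihood test), and DESeq2 gave an adjusted p of 0.00166. It passed in edgeR with each library left out in turn, with adjusted p between 1.20e-04 and 0.00887. The major circRNA fell by 0.36 (SE 0.10, adjusted p = 0.0372 in edgeR, 0.0119 in DESeq2). That call was lost without deletion P12, without wild type P12 and without wild type P13, in edgeR fits that also dropped the day term. With each library left out in turn the log2 fold change lay between -0.39 and -0.34. On the SRPBM scale, where the median circRNA stood at -1.54, the second and the major circRNA were at -2.26 and -1.83. Relative to that median these are -0.72 and -0.29.

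The Gigyf2 circRNA that ends at 87374111 had 14.7 and 13.5 reads per 100000 in the deletion, against 6.19 and 2.63 in wild type. It rose by a log2 fold change of 1.75 (SE 0.34, adjusted p = 0.00273 in edgeR, 0.0324 in DESeq2). On the SRPBM scale it stood at 0.30 without passing, 1.84 above the median circRNA of that scale. Without wild type P13, its lowest library, the fold change was 1.19 and did not pass (edgeR's adjusted p = 0.0661). The downstream Phf21a circRNA (92356864 to 92359209) had 5.67 and 5.56 reads per 100000 in the deletion and 2.41 and 0.922 in wild type. Its log2 fold change was 1.83 (SE 0.54, adjusted p = 0.0420 in edgeR). On the SRPBM scale it stood at 0.40 without a call, 1.93 above the median circRNA of that scale. DESeq2 did not call it (adjusted p = 0.215), nor did edgeR without wild type P13 (0.277), with genotype alone (0.0689) or without the count filter (0.167), and it rests on 59 reads.

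Among the major circRNAs that did not pass in edgeR, the log2 fold change was 0.29 (SE 0.10) for Phf21a, with an adjusted p of 0.0899. Snrk had 0.25 (SE 0.10; 0.171), Gigyf2 0.08 (SE 0.10; 0.693) and Tulp4 0.05 (SE 0.11; 0.852). On the SRPBM scale all 4 fell in the deletion, with log2 fold changes between -1.41 and -1.18, and above the median circRNA on that scale by between 0.12 and 0.36. Of the minor ones, the short Gigyf2 circRNA had a log2 fold change of 0.95 (SE 0.34, adjusted p = 0.0997 in edgeR) and the exonic Tulp4 circRNA at 6198672 had -1.21 (SE 0.45, adjusted p = 0.114).

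**Figure D5:**
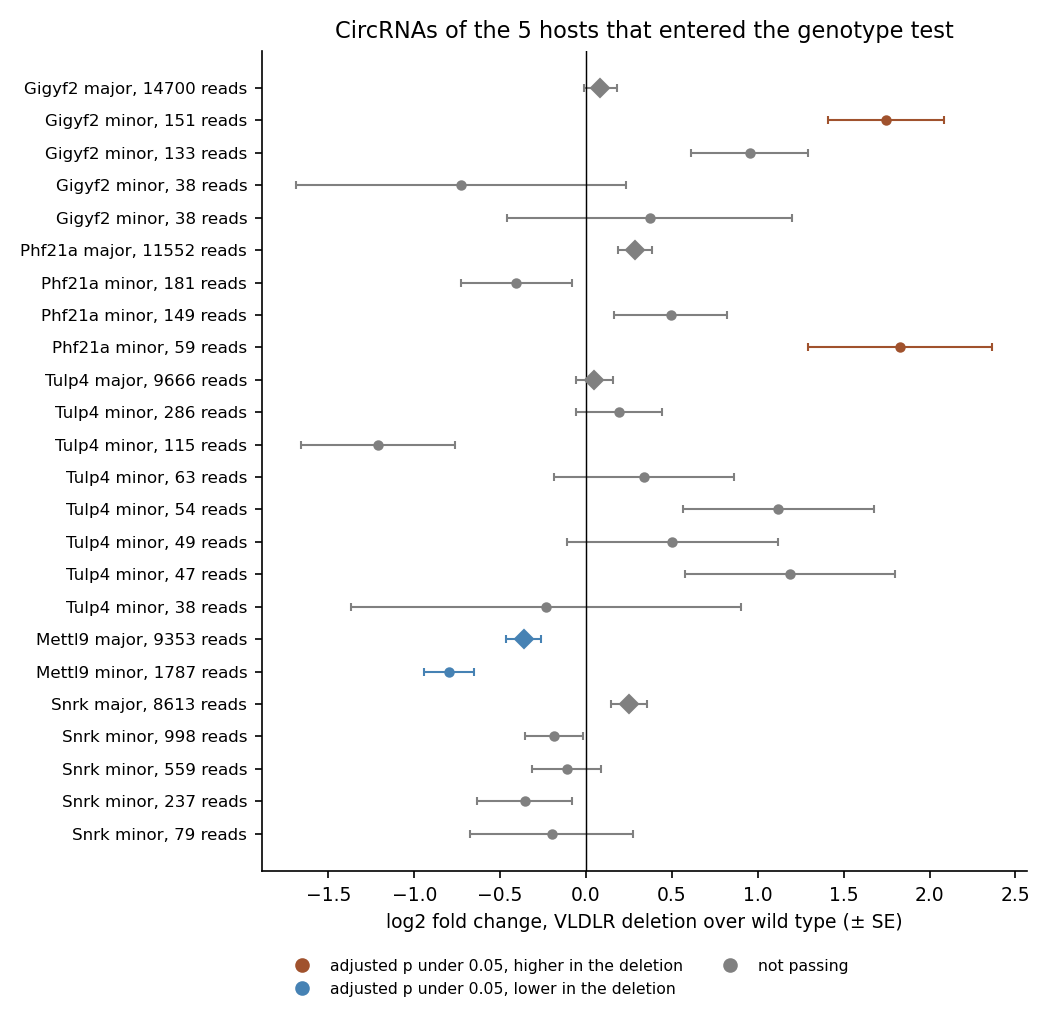
Log2 fold change of the deletion over wild type (± SE, edgeR with TMM scaling) for the 24 tested circRNAs of the 5 hosts, labelled by host and summed reads. The 2 brown points and the 2 blue points passed at an adjusted p under 0.05. With SRPBM library sizes the 2 brown ones lay at 0.30 and 0.40 without passing, 1.84 and 1.93 above the median circRNA of that scale.

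Summing all circRNAs of a host gave 2 calls among the 5. Mettl9 had 1309 and 1489 reads in the deletion, and 3887 and 4484 in wild type, and fell by 0.37 on the log2 scale (SE 0.10, adjusted p = 0.00235 in edgeR's quasi-likelihood test). Phf21a had 1931 and 2309 reads in the deletion and 3521 and 4221 in wild type. It rose by 0.34 (SE 0.10, adjusted p = 0.00442 in edgeR) under TMM scaling. On the SRPBM scale it stood at -1.18 and fell, though it lay 0.39 above the median host of that scale. The Phf21a call was lost without deletion P13 (adjusted p = 0.0652 in edgeR), whereas Mettl9 passed with each library left out. The background here was 14.0% of 3899 hosts called (7.46% up and 6.54% down), with 7 up and 2975 down under SRPBM library sizes and 193 up and 245 down without the count filter. Snrk had a log2 fold change of 0.24 (adjusted p = 0.0769 in edgeR), Gigyf2 0.17 (0.269) and Tulp4 0.11 (0.525). Hipk3, another host of a top circRNA, had -0.52 (adjusted p = 4.20e-06 in edgeR), while Ano2 at -0.02 and Bbs9 at 0.11 did not pass.

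Whether the mix of circRNAs within a host differed between the genotypes was tested against the other circRNAs of the same host, which does not depend on the scaling of the libraries. Among 6834 circRNAs of 1668 hosts 1.81% were called (0.922% up and 0.893% down) by edgeR's test of differential usage, and 1 of the 24 circRNAs of the 5 hosts was among them. That was again the Gigyf2 circRNA ending at 87374111, whose usage rose by a log2 change of 1.64 (adjusted p = 0.0184 in edgeR). It made up 1.95% (exact binomial interval 1.42% to 2.61%) and 1.69% (1.24% to 2.24%) of Gigyf2 reads in the deletion. In wild type it made up 0.85% (0.61% to 1.15%) and 0.37% (0.23% to 0.57%), below both deletion libraries. The usage call was lost without deletion P12 (adjusted p = 0.0676 in edgeR) and without wild type P13 (0.457).

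The shares of the major circRNAs differed by a few percentage points at most. Snrk had 84.6% (82.8% to 86.3%) and 83.5% (81.7% to 85.1%) of its reads in the major circRNA in the deletion, against 80.4% (79.02% to 81.8%) and 79.7% (78.4% to 81.0%) in wild type. For Mettl9 the shares were 85.7% (83.7% to 87.6%) and 87.6% (85.9% to 89.3%) in the deletion, and 83.2% (81.9% to 84.3%) and 82.4% (81.2% to 83.5%) in wild type. In both hosts the shares of the genotypes did not overlap. The intervals did, for Snrk between deletion P13 and wild type P12 and for Mettl9 between deletion P12 and wild type P12. Each wild-type library was read on 2 lanes, with lane values from 78.5% to 81.8% for Snrk and from 81.9% to 83.8% for Mettl9, below both deletion libraries. Lanes split 1 library and are no replicates of a genotype. In edgeR's usage test neither host had a circRNA that passed: the major circRNA of Snrk had 0.07 (adjusted p = 0.947) and the second one of Mettl9 -0.37 (0.466). The share was 95.03% and 96.0% in the deletion and 96.9% and 96.9% in wild type for Gigyf2, and 92.7% and 93.1% in the deletion and 92.9% and 93.4% in wild type for Tulp4. For Phf21a it was 96.7% and 96.4% in the deletion and 95.5% and 97.1% in wild type.

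For the day, P13 against P12, 0 of the 24 circRNAs passed edgeR's quasi-likelihood test in either direction. None had an unadjusted p under 0.05 (0 of 24), and DESeq2 called 0 as well. The background was 0.0228% of the 8785 circRNAs called. The major circRNAs had log2 fold changes of 0.05 for Gigyf2, 0.09 for Phf21a, 0.03 for Mettl9, 0.00 for Snrk and -0.11 for Tulp4, with SEs between 0.10 and 0.11. By host sum 0 of 5 passed, with 0 at an unadjusted p under 0.05 and 0 in DESeq2 (background 0.103%), and 0 of 24 passed in edgeR's usage test, with 0 at an unadjusted p under 0.05 (background 0.0293%). At 2 libraries a day these values do not show that the days are alike.

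Pairs of single libraries were compared as well. A call needed a ratio of scaled reads of at least 2 or at most 0.5 with an exact 95% interval that excluded 1, which covers counting error only and sets 1 library against another. At P12 the rule called 3 of 22 circRNAs of the 5 hosts higher in the deletion and 0 lower, with 21.5% called over all circRNAs (10.9% higher and 10.6% lower). These were the downstream Phf21a circRNA and the Gigyf2 circRNAs ending at 87374111 and 87365279. At P13 it called 5 of 25 higher and 1 lower (19.9% over all, 10.3% higher and 9.58% lower): the Gigyf2 circRNA ending at 87374111, the Phf21a one and 3 of Tulp4 were higher, and the Tulp4 circRNA at 6198672 was lower. The Gigyf2 ratio, deletion over wild type, was 2.37 (1.52 to 3.72) at P12 and 5.13 (2.97 to 9.15) at P13, and the Phf21a ratio 2.35 (1.12 to 4.97) and 6.05 (2.44 to 17.0). The second Mettl9 circRNA was at 0.638 (0.539 to 0.752) at P12 and 0.520 (0.439 to 0.612) at P13, below 1 at both days and short of the fold that the rule required. With SRPBM library sizes the rule called 0 higher and 14 lower at P12 and 0 higher and 16 lower at P13, and over all circRNAs 63 higher and 4660 lower at P12 and 34 and 5834 at P13.

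Between the days, the pair of deletion libraries gave 0 calls among 19 circRNAs (8.18% over all), and the pair of wild-type libraries gave 2 higher and 2 lower among 28 (9.10% over all, 4.48% higher and 4.62% lower). With SRPBM library sizes the pair of wild-type libraries gave 2 higher and 1 lower, and 730 higher and 269 lower over all circRNAs. Lower at P13 in wild type were the Gigyf2 circRNA ending at 87374111, with a ratio of 0.430 (0.239 to 0.752), and the downstream Phf21a circRNA, with 0.386 (0.134 to 0.992). Their ratios in the deletion were 0.930 (0.602 to 1.44) and 0.994 (0.489 to 2.04). Higher at P13 in wild type were the Snrk circRNA starting at 122132628 and a Gigyf2 circRNA of the intron class ending at 87380593, with 18 reads at P13 and 6 at P12.

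The partners and relatives of the 5 host proteins were examined as circRNA hosts, 49 genes in 5 lists. Of these 24 had enough reads for the test of host sums, and 0 rose and 2 fell by genotype in edgeR's quasi-likelihood test, with 6 at an unadjusted p under 0.05. Against the background of 14.0% of hosts called, 2 of 24 is no result about these lists. Tnrc6c, a scaffold of microRNA-guided silencing and a partner of GIGYF2, had 46 and 71 reads in the deletion and 210 and 268 in wild type. It fell by 0.83 on the log2 scale (SE 0.22, adjusted p = 0.00306). Rest, a repressor that recruits the LSD1-CoREST complex, had 17 and 6 reads in the deletion and 76 and 53 in wild type. It fell by 1.33 on the log2 scale (SE 0.45, adjusted p = 0.0267 in edgeR).

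GIGYF2 partners counted 6 of 11 genes tested, with a median log2 fold change of -0.40 against -0.05 for all hosts, and Tnrc6b was their most-read host with 2265 reads. The LSD1-CoREST list had 7 of 13 tested with a median of 0.10, led by Kdm1a, the demethylase itself, with 1146 reads. Tubby-like genes had 3 of 4 tested, a median of 0.29 and 0 calls, and the most-read was Tulp1, a photoreceptor gene, with 189 reads. AMPK-related kinases had 8 of 18 tested with a median of 0.04 and 0 calls (4 at an unadjusted p under 0.05), led by Mark3 with 1769 reads. None of the 3 other histidine methyltransferase genes reached the test, and Setd3 held the 39 reads of that list. By day 0 of the 24 genes passed in edgeR, with 3 at an unadjusted p under 0.05. Next to these relatives the 5 hosts stand out in reads, which the choice of the hosts fixes.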

How the data were processed

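Junction reads of circRNAs were measured in 4 libraries of mouse ocular tissue, 1 per group. The authors deposited per circRNA the count of back-spliced junction reads and of non-junction reads, its class and its host, in the column layout of CIRI per the file headers. They also deposited a junction ratio, a fraction that recomputes from the counts as 2J/(2J + N), with J the back-spliced and N the non-junction reads (100% of values within rounding). A further deposited column, SRPBM, is a signal equal to the junction reads divided by 1 constant per library, 10.6 and 12.1 reads per unit in the deletion and 9.14 and 9.10 in wild type. Not given in the sources used here are the meaning of that constant, the genome build and the annotation. Coordinates are those of the deposited tables. The submitters' processing notes name BWA and DESeq2 without a version or a role. Host identifiers were matched to symbols with a RefSeq table of assembly GRCm38.p6, used for names only (7242 of 7254 matched).

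Counts were tested with edgeR 4.0.16 in R 4.3.3 (TMM scaling, robust quasi-likelihood fit, genotype and day as additive terms, 1 residual degree of freedom) over circRNAs, or host sums, that reached 10 reads in 2 or more libraries. Benjamini-Hochberg adjustment at 0.05 ran over all features tested. Usage was tested with edgeR's diffSpliceDGE, and DESeq2 1.42.0 was an alternative. Pairs of libraries needed at least 20 reads over both. Ratios have exact conditional and shares exact binomial 95% intervals, which cover counting error only, since the reads carry no molecular identifiers. The fits were also run on simulated counts. These held no difference between sequencing runs, so they cannot speak to genotype and run coinciding here. Alternatives were SRPBM library sizes, no count filter, 1 factor alone, and each library left out with the tested factor as the only term. Others were a minimum of 50 reads for pairs and other denominators of shares and ratios. Chosen after seeing the data, junction reads of 1 circRNA within 500 units on 1 tile were counted once (5.40% to 6.22% of reads lay this near another).

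The hosts, the gene lists and the tests were chosen with earlier results of these data known. Named minor circRNAs are the next 3 by summed reads per host, those that passed a test, and the most-read one listed in 1 genotype alone; genes of the lists are named where they passed or led their list. A few others named for single pairs of libraries were chosen after their values were seen.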

Additional observations from a re-analysis of the deposited data

Results flagged for a closer look

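A Tulp4 circRNA of the intron class (chromosome 17, 6118296 to 6139156) had ratios between the genotypes on opposite sides of 1 at the 2 days. It had 0 and 13 reads in the deletion at P12 and P13, and 14 and 11 in wild type at P12 and P13. The ratio of scaled reads, deletion over wild type, was 0 (0 to 0.666) at P12 and 2.63 (1.09 to 6.49) at P13. The Snrk circRNA from 122132628 to 122137601 on chromosome 9 was higher at P13 than at P12 in wild type, with 8 and 7 reads at P12 and P13 in the deletion and 2 and 28 in wild type. Its ratio, P13 over P12, was 0.778 (0.240 to 2.46, an interval that includes 1) in the deletion and 12.3 (3.11 to 107) in wild type. With 1 library a group neither difference was tested.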

How the results depend on the processing

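No paired analysis was possible because each group holds 1 library and the replicate numbers carry no pairing. Depth limits the minor circRNAs most: 43 of the 67 did not reach the test. The scaling of the libraries changed most. With SRPBM library sizes the genotype test called 4806 circRNAs and 2982 hosts. Of the 5 hosts studied 14 circRNAs and all 5 sums were called, each lower in the deletion. The pairs gave 4723 calls at P12 and 5868 at P13. The log2 fold changes of the major circRNAs became -1.38 for Gigyf2, -1.18 for Phf21a, -1.41 for Tulp4 and -1.21 for Snrk, that of the short Gigyf2 circRNA -0.50, and the host sums -1.36, -1.18, -1.41 and -1.28 in the same order of hosts. The day gave 0 circRNAs and 0 hosts there, as it did in DESeq2 and with day alone, where usage by day gave 1 call. DESeq2 called 289 circRNAs and 181 hosts by genotype. Without the count filter the Gigyf2 and Tulp4 major circRNAs turned to -0.13 and -0.17, 17 circRNAs were called by day, and usage gave 192 calls by genotype and 11 by day. Usage by genotype alone gave 223. Nearby reads counted once left 1 circRNA called by day. A minimum of 50 reads left 653 calls at P12 and 653 at P13, and by day 78 in the deletion and 177 in wild type.

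With each library left out in turn, calls by genotype ranged from 507 circRNAs without wild type P12 (314 up and 193 down) to 1527 without deletion P13 (596 up and 931 down; 1 to 5 from the hosts studied). Host sums ranged from 250 to 649 calls (1 to 2 of the hosts studied) and usage from 29 without wild type P13 to 322 without deletion P13 (0 to 2 from the hosts studied). By day they ranged from 0 to 19 circRNAs, 0 to 9 hosts and 0 to 3 in usage. The single circRNA of these hosts called without wild type P13 was the second one of Mettl9. The log2 fold change by genotype of the Tulp4 major circRNA then ranged from -0.073 to 0.17 and of the Tulp4 sum from -0.017 to 0.26. By day the major circRNAs ranged from -0.024 to 0.13 for Gigyf2, -0.05 to 0.25 for Phf21a, -0.16 to 0.23 for Mettl9 and -0.13 to 0.15 for Snrk. Fits with a library left out held the tested factor alone, so that day and genotype were not separated in them. The Snrk value by day was also below 0 with day alone (-0.0014), nearby reads counted once (-0.0038) and DESeq2 (-0.0081). For each of these the cause was not tested.

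The share of the Gigyf2 major circRNA in deletion P12 was 96.1% over circRNAs with at least 5 reads. Over circRNAs listed in all 4 libraries the Gigyf2 share was 97.4% in wild type P12 and 97.9% in wild type P13, and in wild type P12 the Phf21a share was 96.2% and the Tulp4 share 94.1%. The median junction ratio of the major circRNAs, 0.961 as deposited, was 0.925 as junction reads over all reads.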
